A study of Mus musculus with 23 samples.

Results

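The 10 genes described here encode the chondroitin sulfate proteoglycans of brain matrix and the proteins that bind them. They were taken by symbol from a fixed list, and all 10 of 10 were matched by Ensembl identifier among the 55487 identifiers in the count tables. Bcan, Ncan, Vcan and Acan encode the lecticans brevican, neurocan, versican and aggrecan. Hapln1 and Hapln4 encode link proteins, and Tnr and Tnc encode the tenascins R and C. Cspg5 encodes the membrane proteoglycan neuroglycan C, and Ptprz1 encodes a receptor phosphatase and its secreted form phosphacan.

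RNA came from mouse hippocampal cells of strain C57Bl/6 taken on postnatal day 1, with 200000 cells seeded on one side of a XONA microfluidic chamber whose other side is reached by axons. The cultures all received magnetic nanoparticles (MNPs) at 5 µg/ml. A magnetic field gradient of 50 T/m acted on the stretched cultures between day in vitro (DIV) 1 and DIV 6, while controls had a null gradient. Of the 23 libraries, 5 are control axon and 6 stretched axon, and the soma side has 6 control and 6 stretched libraries. The axon libraries are labelled a pure axonal preparation. Those called soma here are labelled total cell culture, and the extraction protocol speaks of a somatodendritic compartment. No label says which animals or cultures a library came from, so p-values measure the spread between these libraries, which may be technical.

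In brain matrix, lecticans bind hyaluronan through their head domain, link proteins hold that contact, and tenascin R joins lectican tails into a net. In perineuronal nets this matrix surrounds cell bodies and proximal dendrites of certain neurons, and the chondroitin sulfate chains act on growing axons through receptors such as the phosphatase encoded by Ptprs. Neurons and astrocytes both make neurocan, while brevican, tenascin C and phosphacan are known mainly from glia and their precursors, and aggrecan marks mature nets.

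Library totals ran from 16369153 to 43048953 counts, so that a floor of 3 counts was 0.0697 to 0.183 counts per 1000000 counts of the library (CPM). Soma libraries held counts for 22452 to 24575 genes and axon libraries for 4263 to 10242. PCR copies are not separate molecules, so floors and intervals describe counting error alone. The soma library labelled control soma replicate 4 stood apart from its group. Along the leading principal component among soma libraries (53.2% of the variance over 9529 genes) it scored 19.24, among the stretched libraries at 9.98 to 25.95 and away from the other controls at -31.38 to -21.52. Soma results are therefore given with and without it. It was singled out from these same counts for lying among the stretched libraries, so leaving it out tends to widen the difference. A call gained only without it is therefore no support. The soma libraries also fell into 2 sets by the Y-linked gene Eif2s3y, at 24.7 to 28.7 CPM in control replicates 1, 2 and 3 and stretched replicates 1, 2 and 8, and at 5.39 to 13.2 CPM in the other 6. No label gives these sets a name. All 7 neuron markers were detected in every group, with 4 to 7 of them in a single axon library.

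The upstream sequences of the 3 genes with the highest soma level per transcript length are shown, chosen by that level alone. They cover up to 250 bases before the RefSeq start (GRCm38.p6), 5′ to 3′ on the gene's strand, and the Ncan sequence stops where its first GENCODE exon begins. Capitals mark a GC box (GGGCGG) or a CCAAT box (CCAAT) on either strand.
Ncan, chr8:70120874-70121094, minus strand: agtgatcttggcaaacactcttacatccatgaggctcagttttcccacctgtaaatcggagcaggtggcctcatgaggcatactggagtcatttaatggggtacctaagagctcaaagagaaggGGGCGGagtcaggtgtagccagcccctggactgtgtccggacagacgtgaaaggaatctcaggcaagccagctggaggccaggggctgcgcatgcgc
Bcan, chr3:88000357-88000606, minus strand: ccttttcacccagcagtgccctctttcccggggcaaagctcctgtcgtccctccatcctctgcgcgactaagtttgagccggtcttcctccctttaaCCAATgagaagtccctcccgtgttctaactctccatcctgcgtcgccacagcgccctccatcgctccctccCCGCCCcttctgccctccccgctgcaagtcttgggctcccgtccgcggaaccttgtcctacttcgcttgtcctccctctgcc
Ptprz1, chr6:22875252-22875501, plus strand: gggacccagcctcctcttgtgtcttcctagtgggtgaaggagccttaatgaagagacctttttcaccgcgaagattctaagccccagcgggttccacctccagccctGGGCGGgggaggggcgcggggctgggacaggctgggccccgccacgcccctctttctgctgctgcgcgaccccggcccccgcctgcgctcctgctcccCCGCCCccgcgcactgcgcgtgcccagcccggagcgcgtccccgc
GGGCGG was found in 32.7% of 32851 RefSeq promoter windows of the same length, CCAAT in 33.9%, TATAAA in 12.4% and TGACGTCA, the cAMP response element, in 1.55%. The printed Ncan sequence held 1 GC box, Bcan held 1 GC box and 1 CCAAT box, and Ptprz1 held 2 GC boxes. In the full 250-base window, the length used for these shares, Ncan also held 1 TATAAA, within the 29 bases not printed. Bcan and Ptprz1 held 0. None of the 8 genes with an entry held TGACGTCA, and Cspg5 and Hapln4 had no entry. These matches describe letters only.

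In the soma libraries all 10 genes were detected in 12 of 12 libraries, at levels that spanned nearly 3 orders of magnitude. Ncan was the most abundant per length. In control soma its mean level was 120.2 CPM per kilobase of the longest GENCODE transcript, followed by Bcan at 60.55 and Ptprz1 at 17.3. Tnc stood at 16.4, Hapln1 at 9.97 and Cspg5 at 7.95 CPM per kilobase. Vcan, Hapln4, Tnr and Acan were the lowest, at 1.84, 1.54, 1.33 and 0.160 CPM per kilobase. The ranges of neighbours did not overlap between Ncan and Bcan, Bcan and Ptprz1, Cspg5 and Vcan, or Tnr and Acan. The other neighbours overlapped over the 6 libraries. The order in stretched soma was the same except that Tnr (1.70 CPM per kilobase) stood above Hapln4 (0.939), with overlapping ranges. The summed level of the 10 genes was 1477 ± 296 CPM (SD, n = 6) in control soma and 2015 ± 327 CPM in stretched soma, of which Ncan made up 50.6% to 65.5% and 62.9% to 71.9%.

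**Figure D1:**
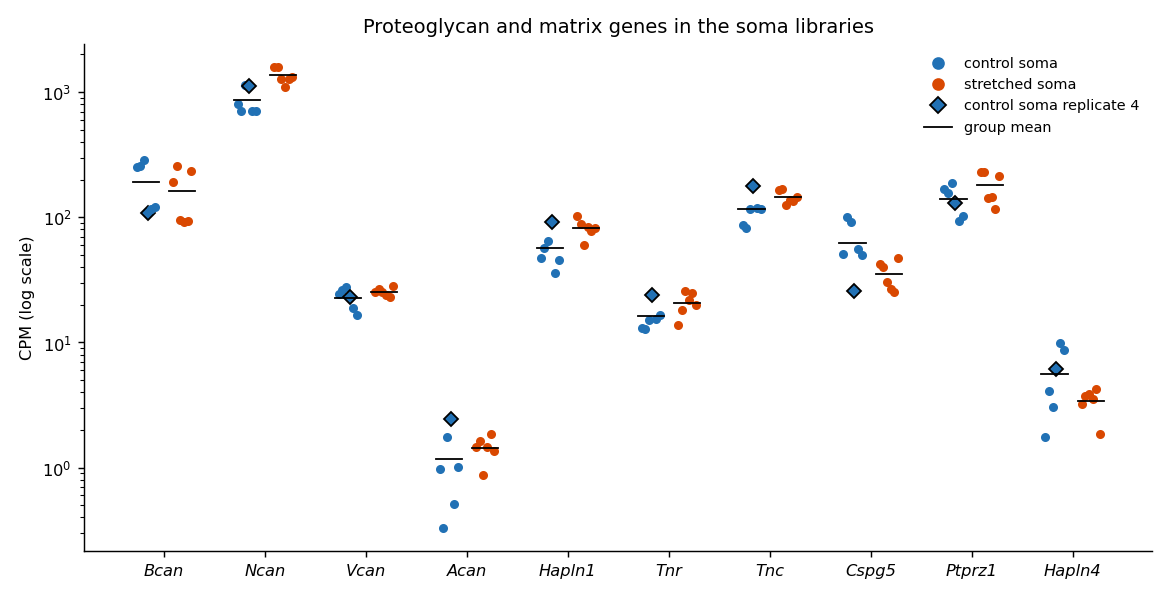
Level of each gene in the 12 soma libraries, in CPM on a log axis, with control soma in blue, stretched soma in orange, a diamond for control soma replicate 4 and a line at each group mean. Ncan lies highest in both groups, at 710 to 1587 CPM, and Acan lowest, at 0.330 to 2.45 CPM.

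Stretch in the soma libraries asks whether the force changed the RNA of the cell-body side. In the edgeR quasi-likelihood test with Benjamini-Hochberg adjustment over all genes, Ncan rose and Cspg5 fell among the 10 genes, and the other 8 did not pass. Over all 15632 genes tested, 25.1% passed, 11.2% higher and 13.9% lower, so 2 of 10 is near the background. All 10 genes passed the filter on low counts. The median log2 fold change of the 10 genes was 0.27 against -0.03 over all genes. No gene of the 10 separated the groups without overlap, which 4.04% of all genes did. In bulk libraries fewer cells of a type and less RNA per cell cannot be told apart.

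Ncan (ENSMUSG00000002341, chr8:70093085-70120873, minus strand, GRCm38), which encodes a lectican secreted into developing brain matrix, had the clearest change. In control soma it ran from 710 to 1133 CPM with a median of 759, and in stretched soma from 1102 to 1587 CPM with a median of 1301. Control replicates 3 and 4, at 1133 and 1120 CPM, lay above the lowest stretched library, so that the groups overlapped at that edge alone. The means were 865 ± 206 and 1358 ± 189.7 CPM (SD, n = 6 each). This gave a log2 fold change of 0.61 (SE 0.13, adjusted p = 0.00774), or 0.68 (adjusted p = 0.000931) without control soma replicate 4. It passed with each of the 12 soma libraries left out in turn, with adjusted p between 0.000931 and 0.0223. Within the low-Eif2s3y set of 3 against 3 libraries the log2 fold change was 0.50 and did not pass (adjusted p = 0.272). In this set 0 genes of all 15718 passed in edgeR and 2739 had an unadjusted p under 0.05. Control soma replicate 4, at 1120 CPM, belongs to this set, whose other controls were at 711.9 and 710.1 CPM. Ncan passed in 22 of 23 alternatives, and the low-set fit was the exception.

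Bcan (ENSMUSG00000004892, chr3:87987531-88000230, minus strand) encodes brevican, the lectican most restricted to brain. Its control soma levels were 109.2 to 287.9 CPM with a median of 185.9, and its stretched soma levels 92.2 to 258.6 CPM with a median of 144.2. The libraries split by Eif2s3y set rather than by stretch: all 6 of the high set lay at 192.9 to 287.9 CPM and all 6 of the low set at 92.2 to 121.2 CPM. For stretch its log2 fold change was -0.29 (SE 0.34, adjusted p = 0.568). With the set as a covariate it was -0.30 and passed (adjusted p = 0.00722). Control soma replicate 4 held the lowest control level.

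Vcan (ENSMUSG00000021614, chr13:89655312-89742509, minus strand), which encodes the large lectican versican, differed least. It ran from 16.6 to 27.8 CPM with a median of 23.9 in control soma and from 22.9 to 28.3 CPM with a median of 25.4 in stretched soma. The log2 fold change was 0.11 (SE 0.12, adjusted p = 0.530), and it was -0.11 with an offset for transcript length and GC content. Acan (ENSMUSG00000030607, chr7:79053483-79115099, plus strand) was detected in each soma library at a low level, with 0.330 to 2.45 CPM and a median of 0.994 in control soma and 0.872 to 1.87 CPM with a median of 1.46 in stretched soma. Its highest value was that of control soma replicate 4. Acan had a log2 fold change of 0.26 (SE 0.40, adjusted p = 0.669).

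The link proteins had fitted values of opposite sign, and neither passed. Hapln1 (ENSMUSG00000021613, chr13:89539796-89611652, plus strand) had 36.2 to 90.9 CPM with a median of 52.2 in control soma and 60.3 to 102.5 CPM with a median of 83.4 in stretched soma. The control value of 90.9 CPM is replicate 4, and the other 5 controls reached 64.5 CPM. Its log2 fold change was 0.50 (SE 0.18, adjusted p = 0.0563), and without that library it was 0.67 and passed (adjusted p = 0.00239). As that library was singled out for lying among the stretched libraries, this pass is no support. With the length and GC offset on all 12 libraries the log2 fold change was 0.20 (adjusted p = 0.434). Hapln4 (ENSMUSG00000007594, chr8:70083457-70090862, plus strand), a link protein known from perineuronal nets, had 1.76 to 9.93 CPM with a median of 5.13 in control soma and 1.85 to 4.28 CPM with a median of 3.65 in stretched soma. Its log2 fold change was -0.75 (SE 0.36, adjusted p = 0.131), and it passed without control soma replicate 1 (-0.93, adjusted p = 0.0499). The low-Eif2s3y controls lay at 6.16 to 9.93 CPM, and the high-set controls at 1.76 to 4.09 CPM, inside the range of the stretched libraries except for the lowest value.

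Neither tenascin passed over all 12 soma libraries, and both passed without control soma replicate 4. As that library was singled out for lying among the stretched libraries, these passes are no support. Tnr (ENSMUSG00000015829, chr1:159523769-159931729, plus strand) had 12.8 to 24.0 CPM with a median of 15.3 in control soma and 13.9 to 25.6 CPM with a median of 20.8 in stretched soma. Replicate 4 held the 24.0 CPM, and the other 5 controls ended at 16.7 CPM. Tnr had a log2 fold change of 0.32 (SE 0.17, adjusted p = 0.189), and it was 0.44 and passed without that library (adjusted p = 0.0319). Tnc (ENSMUSG00000028364, chr4:63959785-64047015, minus strand) had 81.9 to 177.5 CPM with a median of 116.2 in control soma and 124.7 to 168.7 CPM with a median of 141.1 in stretched soma. Replicate 4 was the only control above the lowest stretched library. Tnc had a log2 fold change of 0.29 (SE 0.15, adjusted p = 0.163), and without replicate 4 it was 0.44 (adjusted p = 0.00666). It was 0.76 within the high-Eif2s3y set (adjusted p = 0.00428) and -0.08 within the low set (adjusted p = 0.795). The low-set controls include replicate 4, at 177.5 CPM, and the others were at 118.8 and 116.6 CPM. The low-set stretched libraries ran from 124.7 to 136.6 CPM. The difference between the sets was not tested.

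Of the membrane proteoglycans Cspg5 fell and Ptprz1 did not pass. Cspg5 (ENSMUSG00000032482, chr9:110243783-110262576, plus strand), which encodes a neuronal transmembrane proteoglycan, had 26.0 to 100.6 CPM with a median of 53.4 in control soma and 25.1 to 47.3 CPM with a median of 35.3 in stretched soma. Control soma replicate 4 was the lowest control at 26.0 CPM, and the other 5 controls, at 49.6 to 100.6 CPM, lay above all 6 stretched libraries. The log2 fold change was -0.87 (SE 0.28, adjusted p = 0.0378), and it was -1.04 without replicate 4 (adjusted p = 0.00328). Of 12 fits with 1 library removed, 3 kept the call, with adjusted p from 0.00328 to 0.0896. It was lost without the filter on low counts (adjusted p = 0.144). Ptprz1 (ENSMUSG00000068748, chr6:22875502-23052916, plus strand), which encodes a receptor phosphatase and its secreted form phosphacan, had 93.3 to 189.3 CPM with a median of 142.9 in control soma and 116.0 to 229.8 CPM with a median of 180.7 in stretched soma. As with Bcan, its high-set libraries (156.5 to 229.8 CPM) lay above its low-set libraries (93.3 to 146.2 CPM). The log2 fold change was 0.32 (SE 0.20, adjusted p = 0.256), and with the set as a covariate it was 0.32 and passed (adjusted p = 0.0113).

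**Figure D2:**
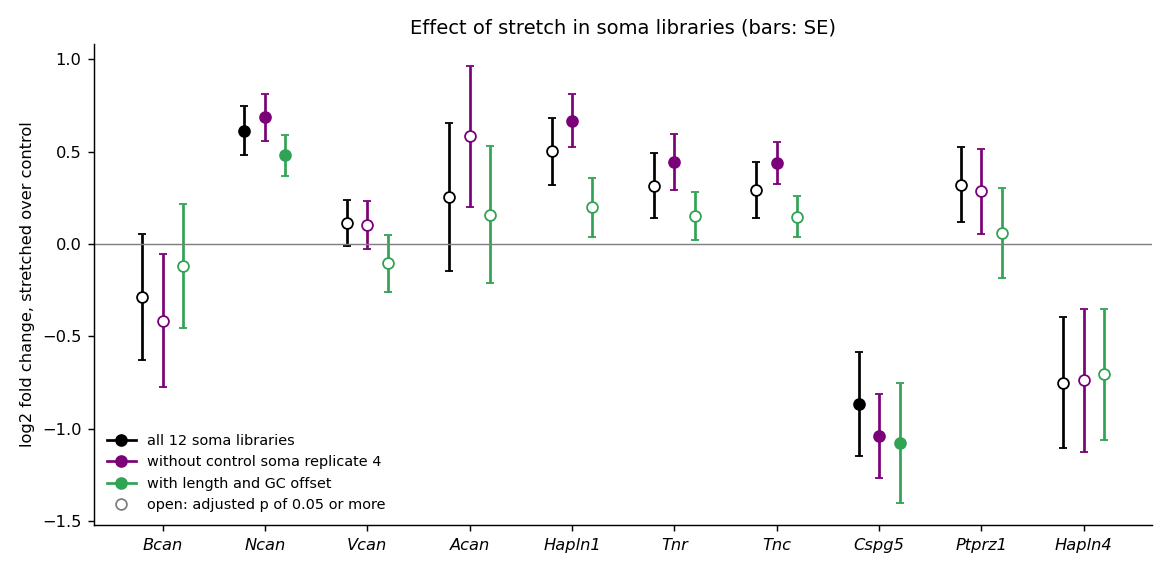
Log2 fold change of each gene, stretched over control soma, with SE bars, in all 12 libraries (black), without control soma replicate 4 (purple) and with a length and GC offset (green); filled points have an adjusted p under 0.05. Ncan and Cspg5 are filled in all 3 fits, and Hapln1, Tnr and Tnc only without replicate 4.

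Without control soma replicate 4, 5 of the 10 genes passed, with Ncan, Hapln1, Tnr and Tnc higher and Cspg5 lower, while 38.3% of all genes passed. The calls gained by leaving out that library are no support, since it was singled out for lying among the stretched libraries. Within the high-Eif2s3y set 5 passed, beside 29.2% of all genes. Within the low set 0 passed in edgeR with 4 at an unadjusted p under 0.05, beside 0% of all genes. Once control replicate 4 was left out there, control replicates 5 and 6 stood against stretched replicates 4, 5 and 6. In that fit 7 of 10 passed, beside 27.5% of all genes. It was added after seeing the data and drops the control that lay among the stretched libraries, so it is no support. With the set as a covariate 4 passed, beside 33.9%. Markers of several cell types moved with stretch in the same libraries, where 25.1% of all genes passed. A marker that passed is thus not set apart from other genes. None of 9 astrocyte markers passed, and their summed level was 5276 to 14370 CPM in control soma and 5523 to 11690 CPM in stretched soma. Among 5 neural progenitor markers Nes and Vim fell, Nes from 37.6 ± 14.0 to 25.5 ± 2.78 CPM, and the summed level was 1155 to 2211 CPM in control soma and 945.6 to 1608 CPM in stretched soma. Oligodendrocyte precursor markers summed to 16.1 to 57.7 CPM in control soma and 11.9 to 33.6 CPM in stretched soma, with Sox10 at 0 in every library. Of 7 neuron markers Tubb3, Rbfox3 and Stmn2 fell and Syt1 rose, and the summed level was 5455 to 6585 CPM in control soma and 5204 to 5915 CPM in stretched soma. Of 5 inhibitory neuron markers Gad1 and Slc32a1 rose and Sst fell, with sums of 197.6 to 286.5 and 242.7 to 309.7 CPM. Of 6 microglia markers C1qa fell, from 13.75 to 5.56 CPM, with sums of 22.7 to 46.6 and 15.4 to 22.7 CPM. Mog, an oligodendrocyte marker, rose and Dcn, a fibroblast marker, fell, and no endothelial marker passed. The nuclear RNA Malat1 fell from 1116 ± 311 to 588.5 ± 232.9 CPM, and of the 8 nuclear or dendritic RNAs Camk2a fell and Shank1 rose as well. The part of these cells and RNAs in the results was not tested.

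Bcan and Ptprz1 varied together within groups. Over the 12 soma libraries, with the group means removed from log2 values, Pearson's r was 0.91 for this pair. It was 0.78 for Vcan and Ptprz1, 0.77 for Bcan and Cspg5, 0.71 for Ncan and Hapln1 and 0.70 for Bcan and Vcan. The lowest values were -0.77 for Tnr and Cspg5 and -0.76 for Bcan and Tnr. These libraries share depth and the Eif2s3y sets, so the values are descriptions. Ranked over 9524 genes, those most like Bcan were Ednrb (r = 0.98), Gprin3 (r = 0.98) and Wdfy1 (r = 0.98). Those most like Ptprz1 were Padi2 (r = 0.98), Ptprr (r = 0.98) and Islr (r = 0.97). Those most like Ncan were Serinc5 (r = 0.97), Abr (r = 0.92) and Arhgap33 (r = 0.92). By rank, Spearman's rho of these pairs ran from 0.66 (Bcan and Wdfy1) to 0.96 (Ptprz1 and Ptprr).

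Each lectican gene lies beside a link protein gene in the annotation, with no gene between them. Hapln1 and Vcan are 43659 bases apart, Hapln2 and Bcan 21519, Hapln4 and Ncan 2222, and Hapln3 and Acan 2. For stretch in the soma libraries Ncan had a log2 fold change of 0.61 beside -0.75 for Hapln4, which did not pass, and Vcan had 0.11 beside 0.50 for Hapln1, neither of which passed. Differences within these pairs were not tested. Ncan overlaps Mir7066, Vcan overlaps Gm16318 and Gm4117, Hapln1 overlaps Gm8546, Tnc overlaps 8030451A03Rik, Cspg5 overlaps Gm43622, and Tnr overlaps Gm37731, Gm10530 and Gm38039, and the counts of these genes are uncertain where reads could belong to either.

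The axon libraries held few of these RNAs. Ncan made up 68.4% to 99.9% of their summed level in control axons and 35.1% to 99.99% in stretched axons, where it was below Bcan in replicate 1. Of 110 combinations of a gene and an axon library, 43 had at least 1 count and 40 had at least 3. A library held 2 to 6 of the 10 genes. Ncan was detected in 11 of 11 axon libraries, Cspg5 and Ptprz1 in 8, Bcan and Tnc in 5, Hapln1 and Tnr in 2, Vcan and Hapln4 in 1 and Acan in 0. Genes whose mean soma level was within 2-fold of the gene's own gave a median of 11 of 11 libraries beside Ncan, 8 beside Ptprz1 and 5 beside Cspg5. They gave 8 beside Bcan, 7 beside Tnc, 6 beside Hapln1, 3 beside Vcan and Tnr, 1 beside Hapln4 and 0 beside Acan.

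**Figure D3:**
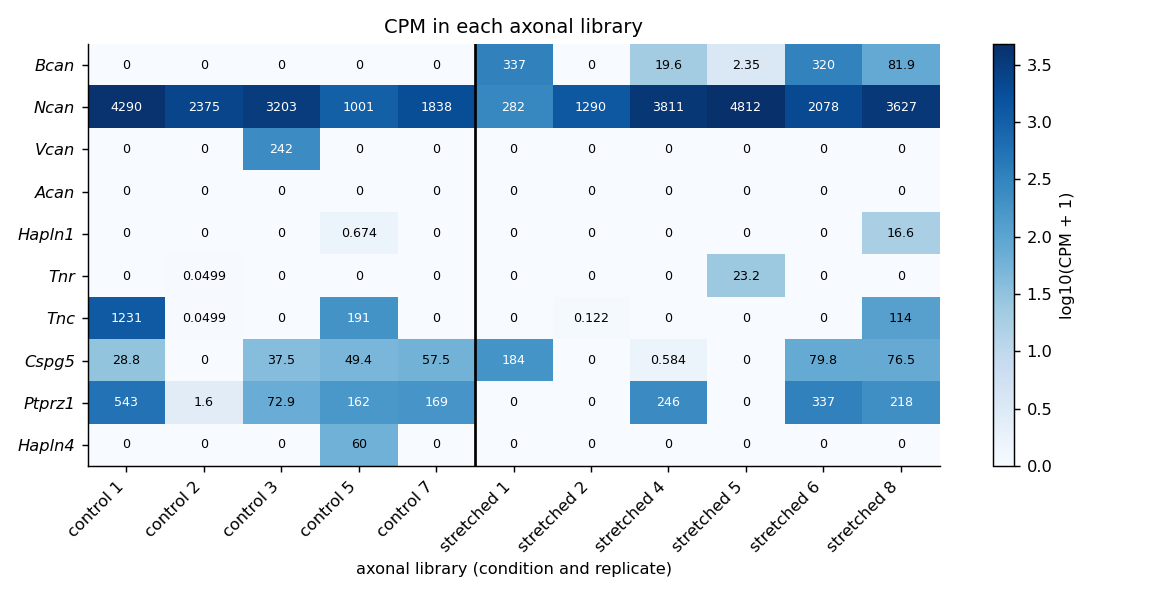
Level of each gene in each of the 11 axon libraries, in CPM written in the cell and shaded by log10(CPM + 1), with control libraries left of the line. The Ncan row is filled throughout, Bcan is at 0 in all 5 controls, and Vcan, Hapln1, Tnr and Hapln4 are each filled in 1 library of a group at most.

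In control axons Ncan was at 4290 CPM in replicate 1, 2375 in replicate 2, 3203 in replicate 3, 1001 in replicate 5 and 1838 in replicate 7. Stretched axons ran from 281.7 to 4812 CPM with a median of 2852. The control range lay within the stretched range. The means were 2541 ± 1264 (SD, n = 5) and 2650 ± 1718 CPM (SD, n = 6), and the log2 fold change was 0.15 (SE 0.54, adjusted p = 0.9998). Of the 10 genes only Ncan, Bcan, Cspg5 and Ptprz1 passed the filter on low counts in this comparison, and 0 of these 4 passed the test. Over all 4947 genes tested 0% passed in edgeR, 46 genes had an unadjusted p under 0.05, and DESeq2 called 18.

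Bcan had no count in any of the 5 control axon libraries and counts in 5 of 6 stretched axon libraries. The stretched values were 336.9 CPM in replicate 1, 0 in replicate 2, 19.6 in replicate 4, 2.35 in replicate 5, 319.6 in replicate 6 and 81.9 in replicate 8. The stretched libraries thus spread over more than 2 orders of magnitude, and replicate 2 was at 0 like the controls. The stretched mean was at least 998-fold higher than the mean floor of 3 counts per control library. With the controls at 0, Bcan passed the filter through the stretched libraries alone, so that it could only come out higher. This did not pass in edgeR (unadjusted p = 0.00335, adjusted p = 0.9998) and passed in DESeq2 (adjusted p = 8.79e-06). Over its alternatives the adjusted p ran from 8.79e-06 to 1. Over all 11 axon libraries, where Bcan was found in 5, the 2269 genes with a like soma level had a median of 8. Of them 16.2% were found in all 11 and 0.0441% in none. Their share at 0 in the 5 control axon libraries alone was not computed.

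Ptprz1 in control axons was at 542.7, 1.60, 72.9, 161.6 and 169.2 CPM in replicates 1, 2, 3, 5 and 7. In stretched axons it was at 0 in replicates 1, 2 and 5 and at 246.3, 337.0 and 218.2 CPM in replicates 4, 6 and 8. Its log2 fold change was -0.41 (SE 2.26, adjusted p = 0.9998). Cspg5 in control axons was at 28.8, 0, 37.5, 49.4 and 57.5 CPM in the same order. In stretched axons it ran from 0 to 184.2 CPM with a median of 38.5, and replicates 2 and 5 were at 0. For Cspg5 the log2 fold change was 0.62 (SE 2.44, adjusted p = 0.9998). With libraries at 0 beside libraries above 150 CPM, the SE of both genes exceeded 2 on the log2 scale.

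The other genes were found in a few axon libraries each. Tnc reached 1231 CPM in control replicate 1, 191.1 in control replicate 5 and 114.3 in stretched replicate 8, and at most 0.122 CPM elsewhere. Vcan was at 242.3 CPM in control replicate 3 and at 0 in the other 10 axon libraries. Hapln4 was at 60.0 CPM in control replicate 5 alone. Hapln1 was at 0.674 CPM in control replicate 5 and 16.6 CPM in stretched replicate 8. Tnr was at 23.2 CPM in stretched replicate 5 and had 1 count in control replicate 2. Acan had no count in any axon library. None of these 6 genes passed the filter on low counts for stretch in axons.

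Between compartments in control cultures, Ncan was higher in axons and Bcan, Acan, Hapln1 and Tnr were lower. Over all 14728 genes tested 35.3% passed, 0.856% higher and 34.4% lower, so that 4 of 10 lower is near the background. All 10 genes passed the filter, and Bcan and Acan, at 0 in control axons, Tnr, with 1 count, and Hapln1, with counts in 1 library, passed it through the soma libraries alone, so that their direction was fixed and their p-values are no support for it. Scaling matters here: the median log2 fold change of all genes was -1.40 with TMM and -1.27 with library totals in control cultures, and -1.13 and -0.73 in stretched cultures. Among all genes tested, the fold change of Ncan lay at percentile 91.1 in control cultures and 82.8 in stretched cultures.

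Ncan was 2541 ± 1264 CPM (SD, n = 5) in control axons and 865 ± 206 CPM (SD, n = 6) in control soma. Control axon replicate 5, at 1001 CPM, lay within the soma range of 710 to 1133 CPM, and the other 4 lay above it. The log2 fold change was 1.26 (SE 0.30, adjusted p = 0.00495). It passed in each of 11 fits without a library and not without the filter on low counts (1.11, adjusted p = 0.105). In stretched cultures stretched axons stood at 2650 ± 1718 CPM and stretched soma at 1358 ± 189.7 CPM (SD, n = 6 each), with a log2 fold change of 0.55 (SE 0.54, adjusted p = 0.688). In 4 stretched axon libraries the level lay above the soma range, replicate 2 within it and replicate 1 below it. Whether the compartments differed more in control than in stretched cultures was not tested.

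Astrocyte RNA was present on both sides. All 9 astrocyte markers were detected in each group, but a single control axon library held 6 to 9 of them and a stretched one 4 to 9. Their summed level was 4791 to 26000 CPM in control axons and 4970 to 20700 CPM in stretched axons. The fitted value of axon over soma was positive for 2 of 9 in each condition. Aqp4 averaged 31.2 CPM in control axons and 311.2 CPM in control soma. Gfap alone averaged 12710 CPM in control axons, 7712 in stretched axons, 6399 in control soma and 6006 in stretched soma. None of the 9 passed between compartments. Neural progenitor markers summed to 1835 to 5399 CPM in control axons with Sox2 at 0. Neuron markers summed to 1442 to 4141 CPM in control axons and 2314 to 3770 CPM in stretched axons. Of these markers 0 of 7 were lower in control axons, beside 34.4% of all genes. In stretched axons 3 of 7 (Map2, Tubb3 and Stmn2) were lower, beside 28.4% of all genes. The 8 nuclear or dendritic RNAs summed to 1009 to 2785 CPM in control axons and 542.7 to 2923 CPM in stretched axons, beside 1713 to 2713 and 1159 to 1894 CPM in soma. Malat1, a nuclear RNA, averaged 1173 CPM in control axons and 894.3 CPM in stretched axons, and 1 of the 8 was lower in axons in each condition. The part of glial or nuclear RNA in the Ncan level of the axon libraries was not tested.

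**Figure D4:**
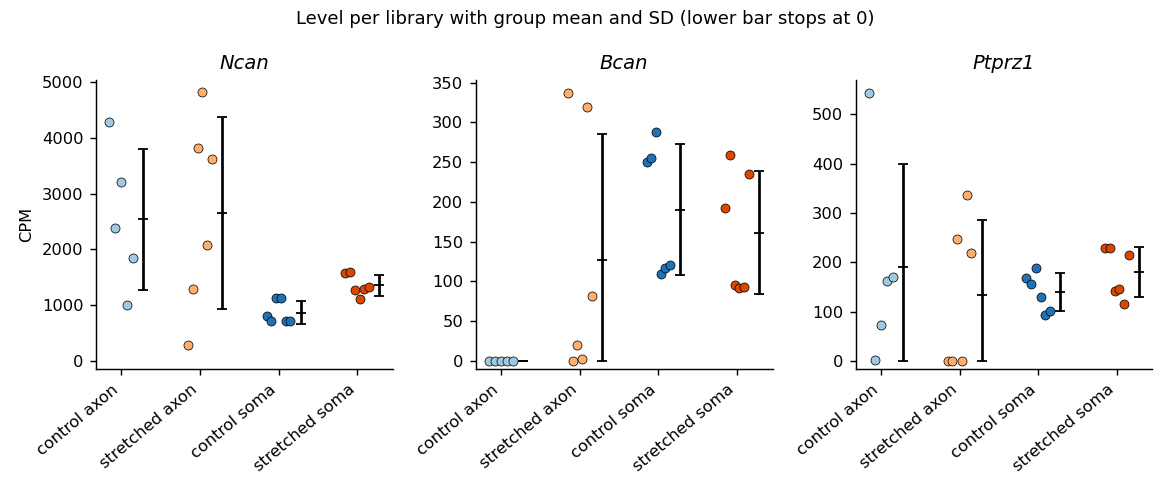
Level of Ncan, Bcan and Ptprz1 in CPM in each library of the 4 groups, with group mean and SD (the lower bar stops at 0). Ncan is at 1001 CPM or more in 5 of 5 control axon libraries, Bcan is at 0 in the same 5 and at 109.2 to 287.9 CPM in control soma, and Ptprz1 overlaps between all groups.

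Bcan was at least 1497-fold lower in control axons than in control soma, against the floor of 3 counts per library (adjusted p = 2.4e-05), and Acan at least 9.25-fold lower (adjusted p = 0.000317). Tnr had 1 count over all control axon libraries, and the ratio of soma to axon was 2098 with a 95% counting interval of 376 to 82910. Hapln1, at 0.135 ± 0.301 against 56.9 ± 19.3 CPM, had a log2 fold change of -8.68 (SE 2.19, adjusted p = 0.00718). These 4 genes did not overlap between compartments, nor did 42.3% of all genes. Vcan, Tnc and Hapln4 had positive fitted values (0.90, 0.96 and 1.06) that did not pass. Vcan and Hapln4 rest on 1 axon library each, and Tnc on replicates 1 and 5. Vcan without control axon replicate 3 had a log2 fold change of -12.3 (adjusted p = 3.53e-05), and Hapln4 without control axon replicate 5 had -10.2 (adjusted p = 9.65e-05). Each of these fits left the gene at 0 in every remaining control axon library. The gene then passed the filter through the soma libraries alone and had to be lower, so these p-values are no support. Cspg5 (-1.05, SE 1.27) and Ptprz1 (0.16, SE 0.92) did not pass.

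In stretched cultures 3 of the 10 genes were lower in axons, all of them at 0 there, and none was higher. These 3 passed the filter through the soma libraries alone, so that they had to be lower in axons. Vcan was at least 183-fold lower (adjusted p = 1.85e-05), Hapln4 at least 24.6-fold (adjusted p = 2.13e-06) and Acan at least 10.3-fold (adjusted p = 1.98e-06). Over all 14466 genes 29.3% passed, 0.843% higher and 28.4% lower. These 3, Hapln1 and Tnc did not overlap between compartments, nor did 38% of all genes. Hapln1 (-5.14, SE 2.43, adjusted p = 0.178) and Tnc (-3.17, SE 2.37, adjusted p = 0.510) did not pass, and both passed without stretched axon replicate 8, the one stretched axon library with more than 0.122 CPM of either. Tnr (-2.85, SE 2.22, adjusted p = 0.536) did not pass either, and it passed without stretched axon replicate 5. With the named library left out, Hapln1 and Tnr were at 0 in the remaining stretched axons and Tnc had 2 counts. Each gene then passed the filter through the soma libraries alone and had to be lower, so these passes are no support. Bcan, lower in control axons, was at 126.7 ± 159.0 CPM in stretched axons and 161.2 ± 77.2 CPM in stretched soma, with a log2 fold change of -0.87 (SE 1.38, adjusted p = 0.863). The difference from the control cultures was not tested.

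Genes that build, carry or bind the chondroitin sulfate matrix were followed in the same fits. Of 23 genes of chondroitin sulfate chain synthesis and sulfation, 22 were tested in soma, and 4 rose and 3 fell with stretch, with a median log2 fold change of 0.02. Csgalnact2, which starts the chain, rose from 9.38 ± 3.16 to 18.9 ± 5.13 CPM (log2 fold change 0.97, SE 0.21, adjusted p = 0.00816). The sulfotransferase gene Chst11 (0.73), the epimerase gene Dse (0.67) and the xylose kinase gene Fam20b (0.52) rose too. Chpf, which encodes a chain polymerizing factor, fell from 104.1 ± 26.2 to 64.0 ± 21.7 CPM (log2 fold change -0.75, SE 0.23, adjusted p = 0.0334), and Chst12 (-0.39) and B3gat3 (-0.35) fell as well. With the length and GC offset 2 rose and 0 fell, beside 2481 of 15619 genes passing in all. Without control soma replicate 4 it was 6 and 4, beside 38.3% of all genes.

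Among 11 tested genes of hyaluronan synthesis, turnover and receptors, Has3, a hyaluronan synthase, rose from 2.22 ± 0.763 to 5.35 ± 1.35 CPM (log2 fold change 1.23, SE 0.24, adjusted p = 0.00562), and none fell. Of 21 tested receptors and binding partners 7 rose and 3 fell, with a median of 0.26. Ptprs, a receptor for chondroitin sulfate chains, rose from 540.5 ± 159.9 to 850.3 ± 159.7 CPM (log2 fold change 0.62, SE 0.17, adjusted p = 0.0188). Rtn4rl1, which encodes a Nogo receptor relative, and the integrin gene Itgb1 rose by 0.69 and 0.60. Rtn4rl2, another Nogo receptor relative, fell from 8.27 ± 7.18 to 1.755 ± 1.499 CPM (log2 fold change -2.28, SE 0.77, adjusted p = 0.0459), as did Mdk (-0.48), which encodes the ligand midkine, and Fbln1 (-0.43). With the length and GC offset 5 rose and 0 fell, beside 2481 of 15619 genes passing in all. Without control soma replicate 4 it was 10 and 4 of 22 tested, beside 38.3% of all genes.

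Of 8 lectican-cleaving proteases and their inhibitor, the inhibitor gene Timp3 alone rose (0.30, SE 0.10, adjusted p = 0.0368) and none fell. With the offset 0 of 8 passed. Of 24 tested other proteoglycans, link proteins and tenascins, Agrn, which encodes agrin, rose from 90.5 ± 26.3 to 148.0 ± 16.3 CPM (log2 fold change 0.67, SE 0.16, adjusted p = 0.0100), and Dcn, which encodes decorin, fell from 19.3 ± 7.54 to 11.2 ± 2.80 CPM (log2 fold change -0.83, SE 0.23, adjusted p = 0.0191). Without control soma replicate 4 the hyaluronan list had 3 higher and 1 lower, the proteases 2 higher, and the last list 4 higher and 2 lower. Across all genes the median was -0.03 and 25.1% passed in the main fit. With the offset 2481 of 15619 passed, and 38.3% passed without control soma replicate 4.

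**Figure D5:**
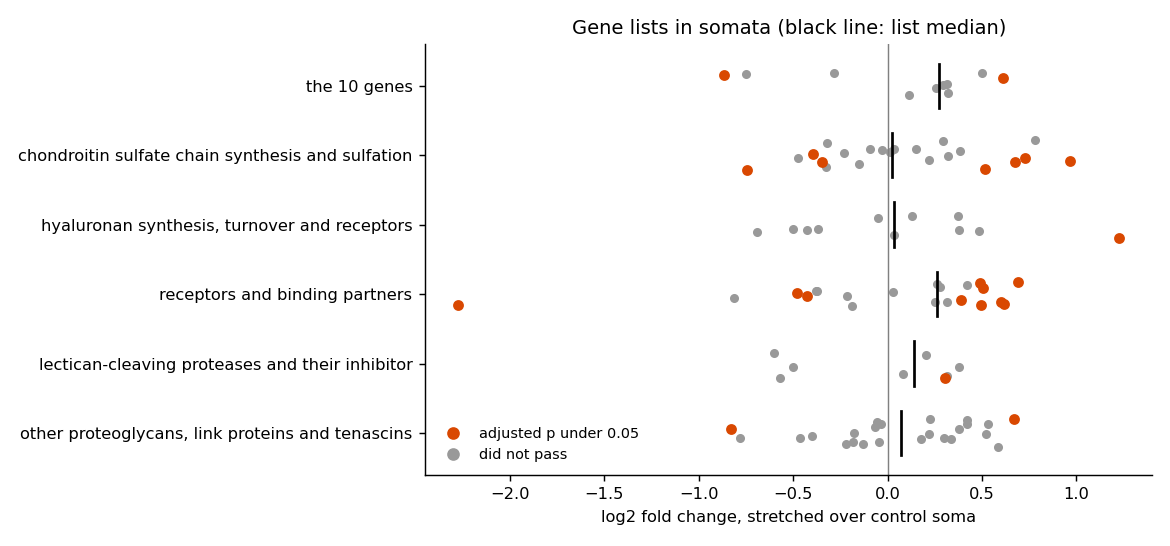
Log2 fold change, stretched over control soma, for each tested gene of the 10 genes and the 5 lists around them, with orange for an adjusted p under 0.05 and a black line at the list median. Medians lie between 0.02 and 0.27, and the lowest point is Rtn4rl2 at -2.28.

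In axons 0 genes of these lists passed for stretch in edgeR and 0 had an unadjusted p under 0.05, out of 2, 4, 12, 2 and 9 tested in the order of the lists above. Between compartments in control cultures 2 list genes were higher in axons. Cd44, which encodes a hyaluronan receptor, was at 218 ± 117 CPM against 64.5 ± 9.15 CPM (log2 fold change 1.45, SE 0.50, adjusted p = 0.0404), and Itgb1 at 430.5 ± 420.2 against 88.4 ± 24.5 CPM (log2 fold change 1.99, SE 0.64, adjusted p = 0.0292). Lower were 10 of 22 genes of chain synthesis, 5 of 11 of hyaluronan, 6 of 21 receptors and partners, 4 of 8 proteases and inhibitor and 10 of 23 other proteoglycans, beside 34.4% of all genes. Of these 35 genes 30 had at most 3 counts over the 5 control axon libraries, 27 of them at 0, so that they passed the filter through soma alone and had to be lower. Against the floor, Chpf2, which encodes a chain polymerizing factor, was at least 336-fold lower, the xylose kinase gene Fam20b at least 212-fold and the epimerase gene Dsel at least 153-fold. The hyaluronan receptor gene Hmmr was at least 109-fold lower, Tnfaip6 at least 18.9-fold and Has3 at least 17.5-fold. Rtn4rl2 was at least 65.1-fold lower, and Sema3a, whose product binds matrix chains, had 1 count over the 5 libraries and Fbln2 had 3. Among the protease genes Adamts15 was at least 31.5-fold lower, Adamts8 at least 18.9-fold and Adamts9 at least 12.1-fold. The glypican gene Gpc1 was at least 295-fold lower, Srgn, which encodes serglycin, at least 87.6-fold and Cspg4, which encodes the NG2 proteoglycan, at least 42.3-fold.

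In stretched cultures no list gene was higher in axons. Lower were 6 of 21 genes of chain synthesis, 2 of 10 of hyaluronan, 4 of 21 receptors and partners, 3 of 8 proteases and inhibitor and 4 of 23 other proteoglycans, beside 28.4% of all genes. Of these 19 genes 16 had at most 3 counts over the 6 stretched axon libraries, 9 of them at 0, and they too had to be lower. Ptprs was at 187.5 ± 100.5 CPM in stretched axons and 850.3 ± 159.7 CPM in stretched soma (log2 fold change -2.66, SE 0.40, adjusted p = 0.000139), and it was detected in 6 of 6 stretched axon libraries. Rtn4rl2 had 13 counts in 1 library (log2 fold change -4.28, SE 1.42, adjusted p = 0.0406), and Egfr had 2 counts. Chpf2 was at 0 and at least 349.8-fold lower, and Dsel and B3gat3 had 1 count each. Has3 was at least 38.4-fold lower and the hyaluronidase gene Hyal1 at least 25.2-fold. Adamts15 was at least 38.4-fold lower and Adamts20 at least 4.19-fold, and Adamts8 had 1 count. Cspg4 was at least 51.5-fold lower, the glypican gene Gpc2 at least 18.7-fold and the tenascin gene Tnn at least 6.66-fold.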

How the data were processed

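Poly(A) RNA was amplified with a low-input kit (unique molecular identifiers included) and sequenced paired-end, per the labels' protocols. The authors deposited whole-number counts per Ensembl gene for each library. The submitters' processing notes name FastQC 0.11.9, MultiQC 1.12, fastp 0.20.1, STAR 2.7.08a, HTSeq 0.13.5 and mm10. Use of the identifiers, strand setting and annotation are not given in the sources used here. Uncounted reads, 14.2% to 24.4% of a library, stayed out of the totals. Reads with several alignments or ambiguous between overlapping genes are among them.

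Symbols were matched by identifier. Lengths, GC content and coordinates came from GENCODE vM21 (GRCm38), and promoters from RefSeq (GRCm38.p6). CPM are counts per 1000000 of a library's counted total. Every pair of groups compared was fitted alone with edgeR 4.0.16 in R 4.3.3 (filterByExpr, TMM, robust quasi-likelihood F test) and Benjamini-Hochberg adjustment over all genes tested, threshold 0.05, after the script was tested on simulated data. The SE is the log2 fold change divided by the square root of F. Bounds use a floor of 3 counts per library. Alternatives were RLE scaling, library totals, no filter, DESeq2 1.42.0, each library left out, the replicate number as a block, a length and GC offset (mgcv 1.9.3), block with offset, the Eif2s3y set as covariate, and detection from 3 counts or after thinning. Fits within the Eif2s3y sets were added after seeing the data.

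All 10 genes are named throughout. From each list the 3 largest rises and falls past the threshold are named, and 1 further gene, Fam20b, was named after its values were seen. The genes most alike are the 3 with the highest Pearson r of within-group log2 deviations among genes of at least 10 CPM in soma. The 10 genes, the lists and the rule were chosen with earlier results of these data known.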

Additional observations from a re-analysis of the deposited data

Results flagged for a closer look

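In groups of 5 or 6 libraries, 9 values lay far from the rest of their group by Dixon's test at the 95% level. Of these, 8 are axon libraries. In 6 of those groups every other library was at 0, so that any count there meets the test, down to 1 count; chance flags about 1 in 20 groups only where values can vary, as for the other 3. In control axons they were Vcan at 242.3 CPM in replicate 3, Hapln1 at 0.674 CPM and Hapln4 at 60.02 CPM in replicate 5, Tnr at 0.0499 CPM (1 count) in replicate 2, and Tnc at 1231 CPM in replicate 1. In stretched axons they were Hapln1 at 16.59 CPM and Tnc at 114.3 CPM in replicate 8, and Tnr at 23.21 CPM in replicate 5. The soma value was Tnr at 23.98 CPM in the library labelled control soma replicate 4, where the other 5 controls reached 16.7 CPM.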

How the results depend on the processing

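Of 609 values of single genes under an alternative, 547 kept their direction and their side of the threshold, 27 passed newly, 14 no longer passed and 21 changed sign. The cause was not tested. For stretch in soma, 2 of the 10 genes passed (3929 of 15632 genes in all). The number was 1 without the filter (3030 of 32870) and 4 with the set as covariate (5304 of 15632). It was 5 within the high set (4637 of 15867) and 0 within the low set (0 of 15718). In the low set minus control soma replicate 4 it was 7 (4462 of 16237). With a library left out it was 1 to 5, with 2666 to 6072 genes passing in all. The 5 came without control soma replicate 4 (6072 of 15857). With the replicate block it was 4 (3227 of 15584), and with the block and the offset 1 (2034 of 15571). Whether equal numbers mark paired cultures is not known, and the main fits did not pair them. In soma, 4 of 5 same-numbered pairs had correlated deviations over 0.1 (lowest 0.00277). Their mean was 0.226, against -0.0361 for different numbers. In each soma group 2 of 5 libraries correlated best with their own number, and no pair of the other comparisons was over 0.1. The offset fit called 2481 genes in all and block with offset 2034. Between compartments in stretched cultures 3 genes passed (4234 of 14466 in all) and 6 with the replicate block (7687 of 14466). With a library left out it was up to 5, 3 being the fewest. The 5 came without stretched axon replicate 8 (6499 of 15010). DESeq2 called 1 gene, Bcan, for stretch in axons, and without the filter 10714 and 10931 genes passed between compartments in control and stretched cultures.

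Signs changed in soma for Vcan with the offset (-0.106) and with block and offset (-0.0764) and for Tnc in the low set (-0.0813). For stretch in axons they changed for Ncan (-0.958) and Cspg5 (-1.11) with the replicate block; with a library left out Ncan ran from -0.116 to 0.403, Cspg5 from -0.0452 to 0.916 and Ptprz1 from -0.995 to 0.415. Between compartments in control cultures the replicate block gave Vcan -10.7, Tnc -4.86, Ptprz1 -0.937 and Hapln4 -7.55. Leaving out a library gave Vcan -12.3 to 1.22, Tnc -1.32 to 1.28, Ptprz1 -0.62 to 0.476 and Hapln4 -10.2 to 1.38. In stretched cultures Cspg5 was -3.4 with the replicate block and -0.527 to 0.542 with a library left out. Detection in axons gave 43, 40 from 3 counts and 43 after thinning to 16369153 counts. In axons, libraries at 0 beside libraries above 150 CPM limit what depth can show.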
